A study of Rattus norvegicus with 17 samples.

Results

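The 6 genes described here, Gpnmb, Spp1, Lgals3, Cd68, Aif1 and Cd14, are genes of phagocytic macrophages and microglia and are 6 of the 32494 Ensembl genes counted in the spinal cords of 17 rats. Their identifiers in the count table were ENSRNOG00000008816, ENSRNOG00000043451, ENSRNOG00000010645, ENSRNOG00000037563, ENSRNOG00000000853 and ENSRNOG00000017819, in that order, with the symbols given when they were picked. They were chosen by their role, as genes of phagocytes in injured cord, together with their counts per rat in injured and intact cords, which were known when they were picked. The differences between injured and intact rats are therefore given as a description, with SEs and counts of calls but no p-values, and nothing is read from those calls. P-values are given for the stimulation and pimozide contrasts. All 6 passed the filter on low counts, which kept 15460 genes in all.

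Group A (4 rats) had sham injury and sham stimulation, group B (3 rats) SCI and sham stimulation, group C (3 rats) SCI and stimulation, group D (2 rats) SCI, stimulation and pimozide at 1 mg/kg, and group E (5 rats) sham injury and stimulation. Injured cords had received a moderate weight-drop contusion of the thoracic cord, sham-injured rats a laminectomy, and every rat an electrode in the nucleus raphe magnus (NRM), a serotonergic nucleus of the lower brainstem; current was passed for 2 h on day 3 in groups C, D and E. All were female rats of 10 to 12 weeks, Sprague-Dawley by the methods of the study and Brown Norway by its keywords, under isoflurane, with buprenorphine and gentamycin given to all. The treatment labels of group E call these rats unstimulated, in conflict with their titles and with the design text, and they were taken as stimulated. Each library combined cervical, thoracic and lumbar blocks of 1 rat, so that a value averages the lesion with cord above and below it.

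After a contusion, resident microglia and monocytes that enter from the blood take up dying cells and myelin debris, and the lipid of the myelin accumulates in them. Cells in this state express lysosomal proteins such as Cd68 and Gpnmb, secrete osteopontin, the product of Spp1, and hold much galectin-3, the product of Lgals3. Aif1, which encodes the calcium-binding protein Iba1, and Cd14, a co-receptor for lipopolysaccharide, are expressed by macrophages and microglia more widely. Spp1 and Lgals3 are not specific to these cells, since some neurons and other glia also express them. In bulk tissue, more cells of a type and more RNA per cell cannot be told apart.

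Libraries held 9852873 to 14137717 counts on genes, and the counts were scaled to CPM (counts relative to the scaled library size) with TMM factors of 0.966 to 1.05. Of 21 lists of marker and pathway genes, 19 could not be matched to any identifier, so the labelled tissue and the presence of other phagocyte genes were not checked by name. Blood-cell genes could be named: the sum of 7 neutrophil genes ranged from 5.52 to 73.1 CPM in intact rats and from 16.1 to 125 CPM in injured rats. The highest was rat 90 of group C. Only 58.3% of the neutrophil list was matched, below the 80% set as required, so its sums and calls cover only the matched genes. The neutrophil and erythroid genes could be named only from the study's list of genes flagged in ±st(SCI) and ±pim(st/SCI), the contrasts of group C with groups B and D, so their differences between these groups were fixed by that choice. Contrasts of groups B, C or D with intact rats are tilted by the same choice.

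The promoters of Gpnmb, Spp1 and Cd68 are shown as examples. Like the other members, these genes rose together in the same injured rats, as described below, by amounts that differed. Each run covers 250 bases before to 50 after the start of the RefSeq gene on GRCr8, 5′ to 3′ on the strand of the gene, with matches to the searched motifs in capitals. The identifiers were joined to RefSeq by symbol. Gpnmb lies at chr4:79340878-79341177 on the + strand, Spp1 at chr14:5619755-5620054 on the - strand and Cd68 at chr10:54882392-54882691 on the - strand.
Gpnmb: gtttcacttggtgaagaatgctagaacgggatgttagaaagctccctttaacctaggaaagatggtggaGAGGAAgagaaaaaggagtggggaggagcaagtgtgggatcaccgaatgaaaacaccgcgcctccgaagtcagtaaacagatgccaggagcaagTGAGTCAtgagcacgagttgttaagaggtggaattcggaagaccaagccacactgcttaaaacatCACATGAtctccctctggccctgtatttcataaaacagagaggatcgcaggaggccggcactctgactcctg
Spp1: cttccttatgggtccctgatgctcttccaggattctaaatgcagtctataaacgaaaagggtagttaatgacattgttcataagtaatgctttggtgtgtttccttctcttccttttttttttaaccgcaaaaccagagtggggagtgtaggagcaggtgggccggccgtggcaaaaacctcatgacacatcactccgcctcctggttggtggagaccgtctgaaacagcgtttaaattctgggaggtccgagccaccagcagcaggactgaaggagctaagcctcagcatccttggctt
Cd68: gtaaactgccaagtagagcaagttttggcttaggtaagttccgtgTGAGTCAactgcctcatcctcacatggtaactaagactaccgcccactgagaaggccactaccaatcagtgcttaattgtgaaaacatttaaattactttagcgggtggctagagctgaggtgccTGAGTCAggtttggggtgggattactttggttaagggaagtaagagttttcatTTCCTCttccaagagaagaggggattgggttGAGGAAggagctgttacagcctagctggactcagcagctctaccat

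Both strands were searched for the AP-1 motif TGANTCA, the PU.1 core GAGGAA and the MITF/TFE motifs TCACGTG and TCATGTG. AP-1 and PU.1 are transcription factors active in macrophages, and MITF and its relatives regulate lysosomal genes. The Gpnmb promoter held an AP-1 match with its first base at -87, a PU.1 core at -181 and, on the opposite strand, the TCATGTG motif at -22. In Cd68 there were AP-1 matches at -205 and -80 and PU.1 cores at -27, on the opposite strand, and 5. Spp1 had no match in this window. The Cd14 promoter, at chr18:28611109-28611408 on the - strand, held PU.1 cores at -140 and -105, and RefSeq promoters for Lgals3 and Aif1 were not used here. Among 33469 promoters of this length 7.33% held the AP-1 motif, 27.6% the PU.1 core, 3.20% TCACGTG and 3.56% TCATGTG. The 9 matches in the 4 promoters did not overlap each other, and they are matches of letters only.

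Gpnmb, a membrane glycoprotein of lysosomes and of the surface of phagocytes, was the member with the widest difference between injured and intact cords. Its levels were 16.0, 14.98, 14.1 and 14.4 CPM in the rats of group A and 14.4, 20.8, 21.9, 17.1 and 17.8 CPM in those of group E. Group B had 708, 349 and 625 CPM, group C 1439, 693 and 260 CPM, and group D 419 and 1370 CPM. The lowest injured rat was 11.9-fold above the highest intact rat, and the 3 injured groups overlapped each other. In ±SCI(0), the contrast of group B with group A, its log2(FC) was 5.23 (SE 0.49), which ranked 6 among the 15460 genes. Between the mean of the 3 injured groups and that of the 2 intact groups the log2(FC) was 5.47 (SE 0.33), a 44.4-fold difference and rank 3.

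Cd68, the lysosomal glycoprotein used to stain phagocytic macrophages, followed over all injured and intact groups, with a smaller rise from a very low level. In ±SCI(0) its log2(FC) of 3.68 was slightly below the 3.72 of Lgals3. Intact rats had 1.25 to 3.65 CPM (median 1.78, n = 9), resting on 16 to 37 counts per rat. In group B it stood at 34.5, 17.4 and 32.4 CPM, in group C at 66.8, 30.4 and 11.5 CPM and in group D at 17.04 and 65.6 CPM. No injured rat overlapped an intact one, and within groups C and D the rats differed by 5.83-fold and 3.85-fold. Over all injured and intact groups the log2(FC) of Cd68 was 4.10 (SE 0.37), or 17.1-fold.

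Lgals3, the galectin of activated macrophages, differed least over the 8 injured rats, by 1.97-fold from the lowest to the highest. Group A had 36.3, 29.1, 31.2 and 39.9 CPM and group E 30.3, 61.9, 39.5, 48.4 and 45.6 CPM. Injury alone gave 480, 393 and 471 CPM in group B, against 775, 441 and 454 CPM in group C and 414 and 711 CPM in group D. Its log2 levels had an SD of 0.16 in group B and 0.46 in group C, where Gpnmb had 0.54 and 1.24. The log2(FC) of injured against intact groups was 3.73 (SE 0.16), or 13.2-fold, with the lowest injured rat 6.35-fold above the highest intact rat.

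Spp1, whose product osteopontin is a secreted ligand of integrins and Cd44, was already counted at a substantial level in intact cords. Rats of group A had 199, 290, 293 and 238 CPM, and those of group E, with the narrowest spread of any gene and group here, 247 to 266 CPM. Levels rose to 1329, 732 and 1005 CPM in group B, 2387, 1313 and 773 CPM in group C and 857 and 2445 CPM in group D. The groups did not overlap between injured and intact rats. The log2(FC) over these groups was 2.40 (SE 0.22), or 5.28-fold.

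Aif1 and Cd14, the broader macrophage genes, showed the smallest gaps between injured and intact rats. Aif1 ranged from 15.9 to 28.0 CPM in intact rats (median 20.7, n = 9) and from 47.4 to 116 CPM in injured rats (median 76.7, n = 8), with a log2(FC) of 2.02 (SE 0.16), or 4.06-fold. Cd14 ranged from 2.94 to 5.62 CPM in intact rats (median 3.76, n = 9) and from 9.38 to 42.1 CPM in injured rats (median 14.7, n = 8), with a log2(FC) of 2.30 (SE 0.28), or 4.93-fold. For both genes the lowest injured rat lay above the highest intact rat, by 1.69-fold for Aif1 and 1.67-fold for Cd14.

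**Figure D1:**
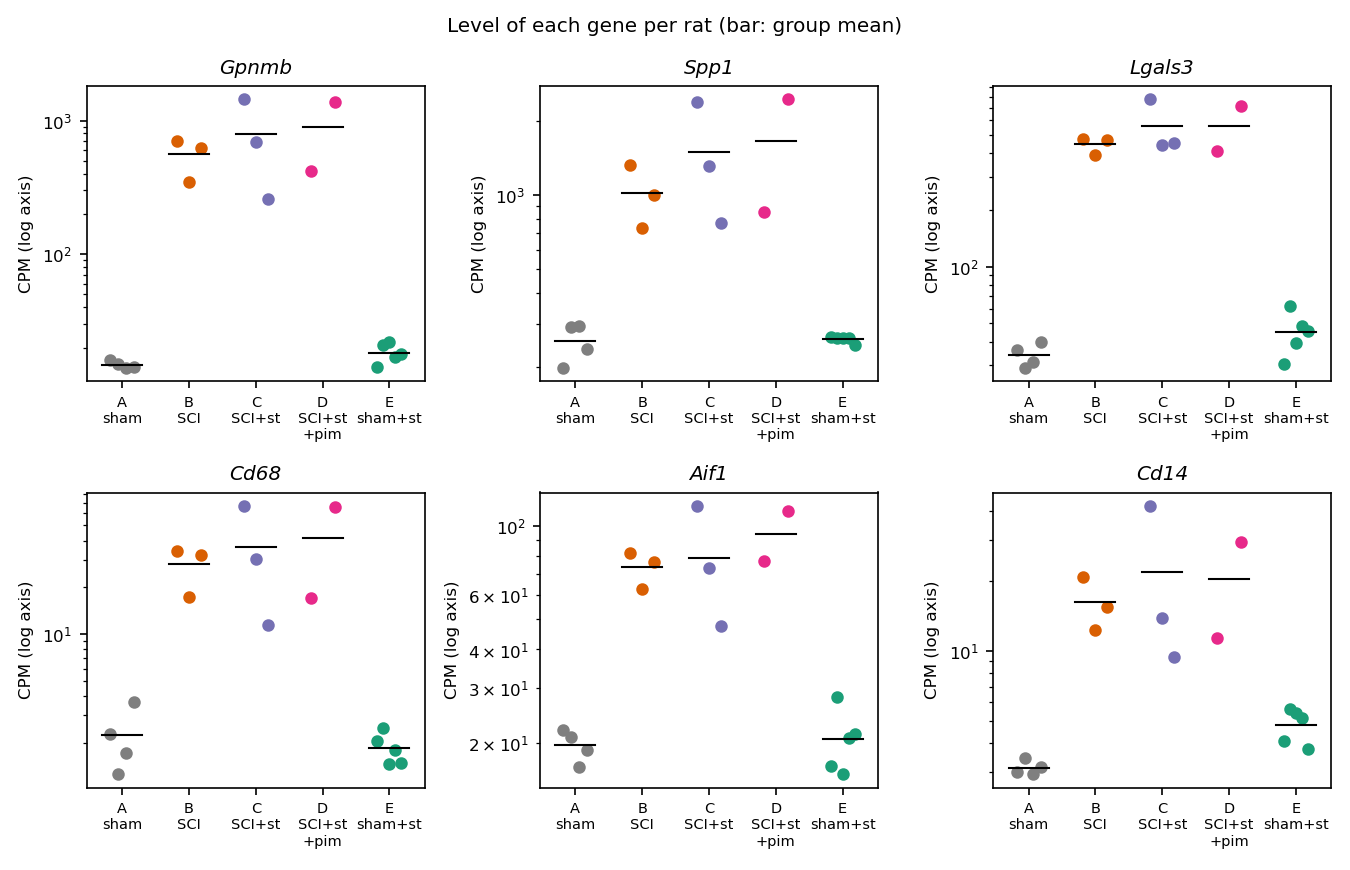
Level of each gene in CPM after TMM scaling (log axis) for each of the 17 rats, by group, with a bar at the group mean. For all 6 genes the rats of groups B, C and D lie above those of groups A and E, and the injured groups overlap one another.

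For all 6 genes the rats of groups A and E overlapped or lay next to each other at the low end, and those of groups B, C and D overlapped at the high end. By group means the order was A, E, B, C, D for Gpnmb, Spp1, Lgals3 and Aif1; for Cd68 group E was lowest, and for Cd14 group C was highest. By medians group C lay below group B for Lgals3, Cd68, Aif1 and Cd14, and group E below group A for Spp1 and Cd68. Steps within the intact pair or within the injured groups were within the spread between rats for every gene except Cd14 in groups A and E. A gene was called higher when its log2(FC) exceeded 1 and its Benjamini-Hochberg FDR was below 0.05. In ±SCI(0) 6 of 6 members were called higher, beside 5.09% of all genes tested. Group C against group A, or ±st/SCI(0), also had 6 of 6 (all genes 6.70%), as did group C against group E, or ±SCI(st) (7.34%), group D against group A (7.47%) and all injured against all intact groups (6.97%). Every group enters more than 1 of these contrasts. In ±SCI(st) 4 of 7 neutrophil and 9 of 10 erythroid genes were also called higher, against 0 of each in ±SCI(0). In ±st/SCI(0) 0 neutrophil genes and 1 erythroid gene were called higher, in group D against group A 1 erythroid gene was called lower, and over all injured and intact groups 0 of either list were called. The sum of the erythroid genes ranged from 213 to 1086 CPM in intact rats and from 234 to 1794 CPM in injured rats. Both lists were named for differences of group C from groups B or D, and each of these contrasts holds group B, C or D. Nothing is therefore read from the calls of neutrophil and erythroid genes. The part of these genes in the members' levels was not tested. In 8.52% of all genes, and in 6 of 6 members, every injured rat lay above every intact rat. The median log2(FC) of the 6 was 3.02, 3.41, 3.07 and 3.37 in the first 4 of the contrasts with intact groups, and that of all genes tested lay between -0.03 and -0.02. These contrasts were known when the genes were picked, so nothing is read from the counts. Without rat 76, group D holds 1 rat, which the fit assumes to vary like the other groups, and 5 of 6 members were called higher against group A, beside 2.94% of all genes tested in that refit.

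The log2 ratio of each gene to Aif1 was taken within each rat, where library scaling cancels, and set to 0 at the mean of the intact rats. Gpnmb stood at 3.26 ± 0.50 (SD, n = 8) in injured rats, Cd68 at 1.92 ± 0.54 (SD, n = 8) and Lgals3 at 1.71 ± 0.25 (SD, n = 8). The lowest injured rat exceeded the highest intact rat in these 3 ratios, at 2.70 against 0.72 for Gpnmb, 1.17 against 0.98 for Cd68 and 1.45 against 0.34 for Lgals3. Of the 15459 genes tested other than Aif1, with these 3 members among them, 38 (0.246%) had such a gap in their ratio to Aif1. The members were chosen with these levels known, so nothing is read from the 3 beside that share. Spp1, at 0.28 ± 0.36 (SD, n = 8), and Cd14, at 0.13 ± 0.39 (SD, n = 8), overlapped the intact rats, whose SDs were 0.34 and 0.39 (n = 9).

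**Figure D2:**
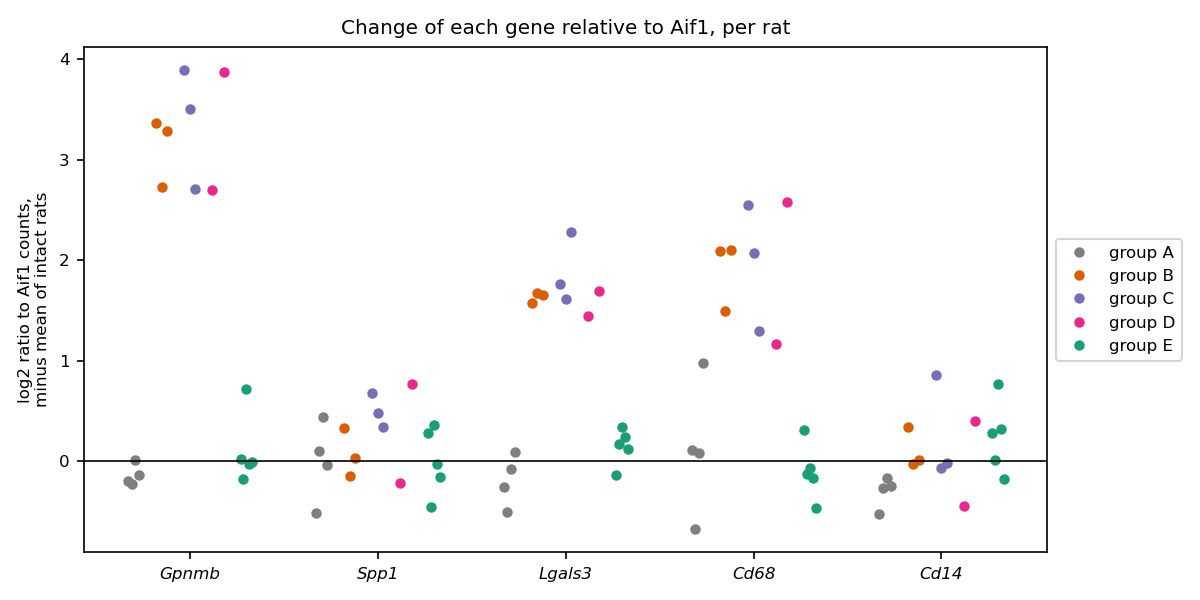
Log2 ratio of the counts of each gene to those of Aif1 in each rat, minus the mean of the 9 intact rats, colored by group. Gpnmb, Cd68 and Lgals3 lie above 1 in all 8 injured rats, whereas Spp1 and Cd14 lie between -0.44 and 0.86 in them.

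The top of the order of injured rats was shared by all 6 members, and the lower places varied between them. Rat 89 of group C was highest in 5 genes and rat 76 of group D in Spp1, and these 2 rats held the first 2 places in all 6. Rat 91 of group B came next in all 6 genes. Rat 93 of group C was lowest in Gpnmb, Cd68, Aif1 and Cd14, rat 94 of group B in Spp1 and Lgals3, where rat 93 held places 7 and 5. On the log2 scale the mean elevation of the 6 genes over intact rats was 4.08 in rat 89, 3.95 in rat 76 and 3.24 in rat 91, against 2.28 in rat 93. The highest and the lowest rat of group C thus spanned the range of all injured rats, and the 2 rats of group D were at 3.95 and 2.65.

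**Figure D3:**
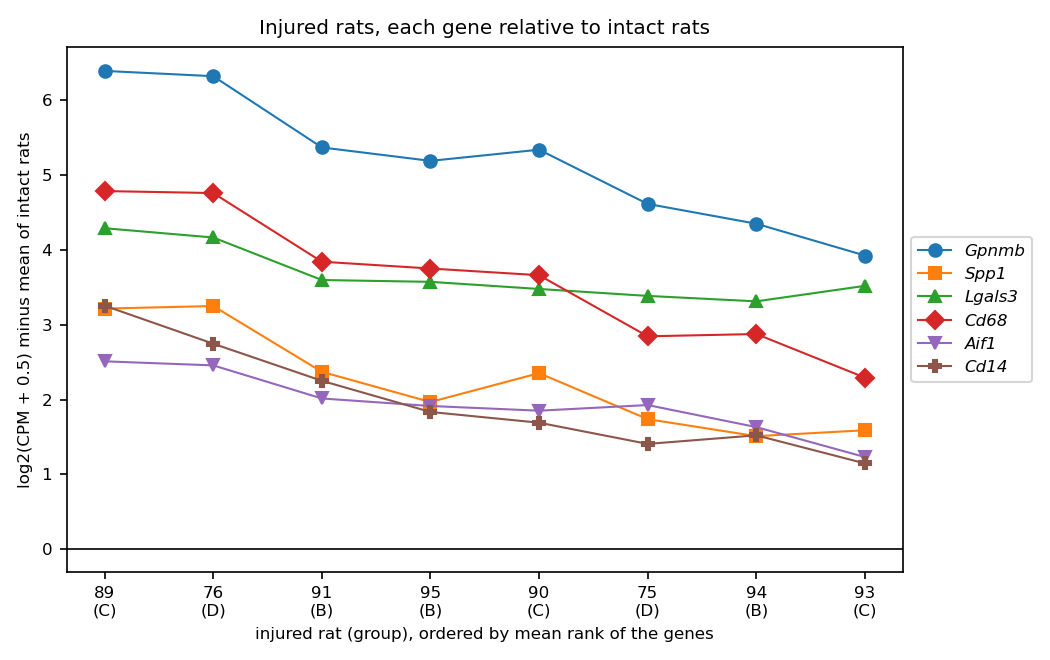
Elevation of each gene in the 8 injured rats, as log2(CPM + 0.5) minus the mean of the intact rats, with the rats ordered by their mean rank. Rats 89 and 76 lie at the top and rat 91 next in every line, and rat 93 lies lowest in 4 lines but not in Spp1 or Lgals3.

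Over the 8 injured rats the log2 levels of the 15 pairs of members correlated with Pearson's r from 0.81 to 0.99 (median 0.93) and Spearman's rho from 0.76 to 1. Gpnmb and Cd68 were the closest pair by Pearson's r (0.99), and Lgals3 and Aif1 the loosest (0.81). Values of one rat share a library and its scaling, so these are descriptions of 8 libraries. Leaving out rats 89 and 76, a choice made with the values in view, r ran from 0.18 to 0.98 with a median of 0.78; Gpnmb and Cd68 stayed at 0.98, and Lgals3 with Aif1 fell to 0.18. As deviations from the group means, the levels correlated with r from 0.86 to 0.998 (median 0.95) in the 8 injured rats and from -0.48 to 0.74 (median 0.25) in the 9 intact rats, where Cd68 and Cd14 rest on few counts. Once the means are subtracted, the rats of group D are mirror values of each other in every gene. The r of deviations was not taken without rats 89 and 76.

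The sum of the 7 neutrophil genes was 103, 125 and 75.8 CPM in rats 89, 90 and 93 of group C, 30.4 and 19.99 CPM in rats 75 and 76 of group D and 16.1 to 21.1 CPM in group B. The sum of 10 genes of erythroid cells was 608, 808 and 1794 CPM in the same rats of group C, 353 and 234 CPM in those of group D and 293 to 419 CPM in group B. Since these genes were flagged for differences between group C and groups B and D, no order across the groups is read from the sums.

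Among 12052 other genes averaging 5 CPM or more, the level most like the mean of the 6 members (each z-scored on the log2 scale) was that of ENSRNOG00000011054, with r = 0.996 over the 17 rats; it averaged 123 CPM in injured and 34.3 CPM in intact rats. After the group means were subtracted, ENSRNOG00000028156 was most alike, with r = 0.981. These r describe 17 libraries, and the identifiers could not be paired with names.

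Whether stimulation of the NRM moved these genes in injured cords was asked with ±st(SCI), the contrast of group C with group B. None of the 6 passed the test: edgeR's quasi-likelihood test called 0 of 6 members and 0 of 15460 genes (percent called 0%), with 476 genes (3.08%) and 0 members below an unadjusted p of 0.05. DESeq2 called 0 members and 0 genes. The exact test of the study's methods, rerun here, called 0 members and 33 genes, fewer genes than the study flagged. All 6 fitted differences were positive, from 0.10 for Aif1 to 0.55 for Spp1, with a median of 0.40 beside 0.00 for all genes. The largest, that of Spp1, had a 95% interval from -0.19 to 1.28 on the log2 scale (adjusted p = 0.999 by edgeR with Benjamini-Hochberg adjustment), that is from 0.87-fold to 2.44-fold. Gpnmb had a log2(FC) of 0.51 with an interval from -0.43 to 1.45. Aif1 and Lgals3 had the narrowest intervals, from -0.43 to 0.62 and from -0.20 to 0.83, which leave out a 2-fold change in either direction. An adjusted p above the threshold does not show that the groups were alike.

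The sign of most of these differences depended on rat 89. Without it the log2(FC) of Gpnmb was -0.23, that of Cd68 -0.43, that of Cd14 -0.48 and that of Aif1 -0.29, while Spp1 and Lgals3 came to 0.029 and -0.0012. Without rat 93, the lowest rat of the same group, Gpnmb rose to 0.94 and Spp1 to 0.87. Rats 89 and 93 are the highest and the lowest injured rats by mean rank over the 6 genes, and both belong to group C.

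Pimozide, an antagonist at 5-HT7 and dopamine D2 receptors given before stimulation, was examined in ±pim(st/SCI), the contrast of group D with group C. The quasi-likelihood test of edgeR called 0 of 6 members, and 4 genes in all (percent called 0.0259%), with 1370 genes (8.86%) and 0 members below an unadjusted p of 0.05. By DESeq2 it was 0 members and 32 genes. The rerun of the exact test gave 0 members and 74 genes, again fewer genes than the study flagged. The fitted differences ran from -0.11 for Cd14 to 0.26 for Aif1, with a median of 0.16 beside -0.02 for all genes. The interval of Gpnmb reached from -0.88 to 1.21 and that of Lgals3 from -0.56 to 0.59. Group D was split as group C was, with rat 76 near the top of the injured rats and rat 75 in the lower part. Without rat 76 the log2(FC) of Gpnmb was -0.93 and that of Cd68 -1.09, and without rat 75 that of Spp1 was 0.71. Both rats of group D carry numbers from 69 to 76 and all rats of groups B and C from 82 to 95. With a term for the number series, which rests on rat 70 in group A and rat 69 in group E, the log2(FC) of Gpnmb was 0.32, that of Spp1 0.34 and that of Cd14 0.095, with 0 of 6 members and 1 gene called by edgeR.

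In intact cords, ±st(0) contrasted group E with group A. By edgeR's quasi-likelihood test 0 of 6 members and 0 genes were called (percent called 0%), with 1297 genes (8.39%) and 0 members below an unadjusted p of 0.05. DESeq2 called 0 members and 15 genes. The rerun of the exact test called 0 members and 25 genes, also fewer genes than the study flagged. Lgals3 had the smallest p of the 6, with a log2(FC) of 0.41 (95% interval -0.05 to 0.86, adjusted p = 0.64 by edgeR). Rat 85 of group E, at 61.9 CPM, was the highest intact rat in this gene and was also highest in Aif1 and Cd14. Cd14 was the 1 member in which the groups did not overlap, at 3.76 to 5.62 CPM in group E against 2.94 to 3.45 CPM in group A, where 2.46% of all genes did not overlap. Its log2(FC) was 0.61 with an interval from -0.28 to 1.498 (adjusted p = 0.72 by edgeR), and it rests on 29 to 44 counts per rat in group A and 43 to 77 in group E. Spp1, at 255 ± 45.2 CPM (SD, n = 4) in group A and 260 ± 7.83 CPM (SD, n = 5) in group E, had a log2(FC) of 0.03 with an interval from -0.58 to 0.64.

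**Figure D4:**
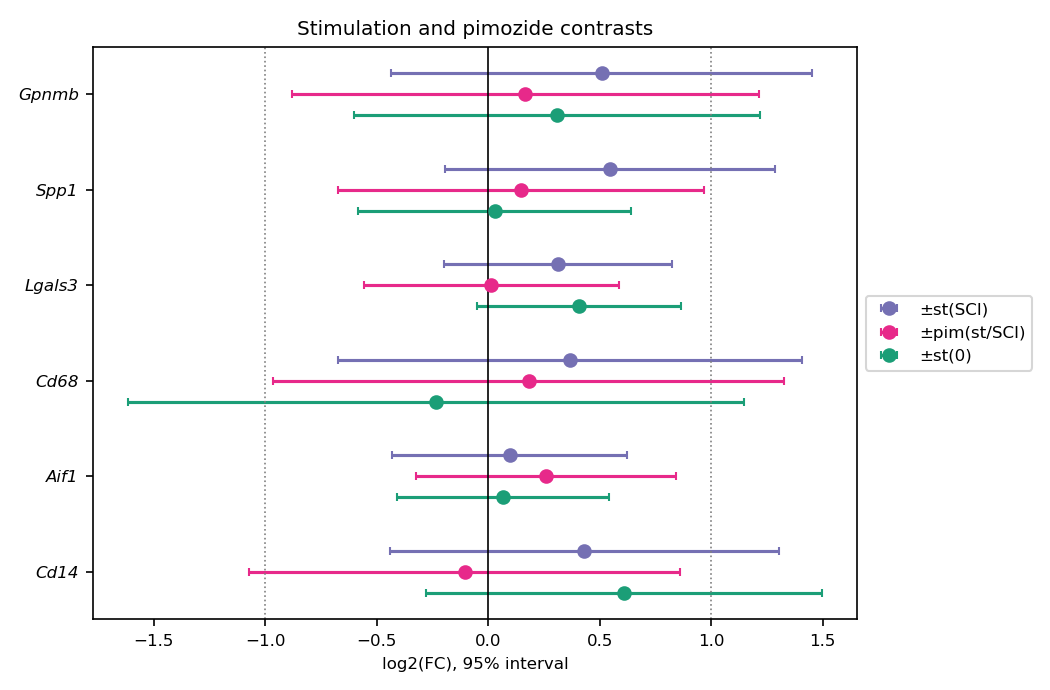
Log2(FC) of each gene with its 95% interval from edgeR's quasi-likelihood fit in ±st(SCI), ±pim(st/SCI) and ±st(0); dotted lines mark a 2-fold change in either direction. Every interval includes 0.

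Whether stimulation acted differently in injured and intact cords was tested as an interaction, ±st(SCI) minus ±st(0). It called 0 of 6 members and 0 genes by edgeR (percent called 0%), with 635 genes (4.11%) and 0 members below an unadjusted p of 0.05, and 0 of each by DESeq2. The log2 differences ran from -0.18 for Cd14 to 0.60 for Cd68, whose interval, from -1.13 to 2.33, was the widest.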

How the data were processed

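RNA of the spinal cord was measured in 17 rats, 1 library per rat. The authors made the deposited values, which are whole-number counts of reads per Ensembl gene without normalization, by trimming reads with Trim Galore, aligning them with STAR 2.5.0a and counting with its GeneCounts function. The labels name Rnor_6.0 as the build and the methods Rnor_5.0, and the strand setting of the count is not given in the sources used here.

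Groups follow the letter in the sample titles. The 6 members and the gene lists were chosen with earlier results of these data known. Counts were fitted in R 4.3.3 with edgeR 4.0.16 (filterByExpr, TMM, glmQLFit with a coefficient per group over all rats, glmQLFTest, Benjamini-Hochberg over 15460 genes) and the call required an FDR below 0.05 and a log2(FC) beyond 1 in either direction. The SE is the log2(FC) divided by the square root of F. Log2 levels are log2(CPM + 0.5). That rats of a group are separate animals is given by the labels, so p-values measure the spread between rats. The test was checked on counts simulated for these groups. Alternatives were DESeq2 1.42.0, the exact test of the methods on 2 groups with scaling by total counts, RLE and total-count scaling, no filter, fits of only the groups compared, a term for the number series, no fold limit and each rat left out. Named were the 6 members and, by a rule on correlation, the most alike genes. Names came from the rule for the members and from the study's supplementary table for 99 identifiers; 7 of 12 neutrophil and 10 of 11 erythroid genes matched, and lists with no match were not analysed here. Depth was 9852873 to 14137717 counts per rat, and intervals come from the fit over rats.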

Additional observations from a re-analysis of the deposited data

Results flagged for a closer look

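Spp1 in rat 88 of group E stood at 247 CPM, far from the other rats of its group when measured against their narrow range of 263 to 266 CPM. It was the 1 case among 12 sets of gene and group examined, and chance gives about 1 in 20. The gap is small beside the 199 to 293 CPM of group A.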

How the results depend on the processing

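No paired analysis was possible because the groups share no rat numbers. In the contrasts of injured with intact groups, 707 of 708 refits of a member's log2(FC) kept its direction and its call, and 1 lost the call (Cd14 in group D against A without rat 76, where the 1 rat left is assumed to vary like the other groups). The members were chosen with these contrasts known, so these counts are a description and no support for the differences. In the stimulation and pimozide contrasts, 530 of 570 refits kept the direction, none passed the threshold (lowest adjusted p = 0.19 by edgeR or an alternative tool) and 40 changed sign. With 1 rat left out the log2(FC) ranged, in ±st(SCI), as Gpnmb -0.23 to 0.94, Spp1 0.029 to 0.87, Lgals3 -0.0012 to 0.46, Cd68 -0.43 to 0.80, Aif1 -0.29 to 0.37, Cd14 -0.48 to 0.81; in ±pim(st/SCI), as Gpnmb -0.93 to 0.91, Spp1 -0.80 to 0.71, Lgals3 -0.43 to 0.35, Cd68 -1.09 to 0.98, Aif1 -0.031 to 0.65, Cd14 -0.94 to 0.80; in ±st(0), as Spp1 -0.073 to 0.11, Cd68 -0.45 to 0.11, Aif1 -0.073 to 0.15; and in the difference of the stimulation effects, as Gpnmb -0.54 to 0.63, Spp1 0.00080 to 0.84, Lgals3 -0.41 to 0.049, Cd68 -0.19 to 1.03, Aif1 -0.36 to 0.30, Cd14 -1.09 to 0.19. Scaling by total counts gave Aif1 -0.017 in that difference, and a term for the number series gave Cd14 0.095 in ±pim(st/SCI). Members called did not change under any alternative except in group D against A, where they ranged from 5 to 6.

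Counts over all genes moved more. Without a fold limit 1912 genes passed in ±SCI(0), 3380 in ±st/SCI(0), 4429 in ±SCI(st), 3796 in group D against A and 6976 in all injured against all intact groups. In ±pim(st/SCI), called genes were 17 without a filter, 1 with the series term, 9 with the 2 groups alone, 74 by the exact test and 32 by DESeq2. In ±st(SCI) they were 3 with the 2 groups alone and 33 by the exact test, and in ±st(0) 25 by the exact test and 15 by DESeq2. With 1 rat left out they ranged from 664 to 1415 in ±st/SCI(0) and 812 to 1554 in ±SCI(st), lowest without rat 89 and highest without rat 93, from 482 to 1940 in group D against A and 0 to 36 in ±pim(st/SCI), lowest without rat 76 and highest without rat 75, from 0 to 49 in ±st(0) and from 0 to 3 in the difference of the stimulation effects, highest without rat 82. The cause was not tested. The exact test was not run for all injured against all intact groups or for the difference of the stimulation effects, nor the fit of only the groups compared for the former.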
